A study of Homo sapiens with 12 samples.

Results

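Long noncoding RNAs, antisense RNAs and intronic RNAs were followed by SLAM-seq, which marks RNA made during a short pulse of 4-thiouridine (S4U), in the human prostate cancer line 22Rv1. The intervals were chosen by name: a noncoding RefSeq transcript (accession prefix NR) whose name starts with LINC or ends in -AS or -IT, with or without a number. For each gene the interval with the most reads over the 12 libraries was kept. This gave 1169 RNAs of 22498 genes, made up of 601 LINC RNAs, 537 antisense RNAs and 31 intronic RNAs. The rest were 18651 coding genes and 2678 other noncoding genes. All cells, controls included, had been gene-edited to express C1111S-SF3B1, and the labels do not say whether they are 1 clone. There were 4 groups of 3 libraries. The vehicle DMSO was at 0.1% v/v, WX-02-23 and WX-02-43 were each at 20 µM and PladB at 10 nM, all for 3 h, and S4U (100 µM, 1 h) came after the compound. WX-02-23 and WX-02-43 are called stereoprobes in the labels and are known here by their code names only, while PladB is pladienolide B, an inhibitor of the splicing complex SF3b, of which SF3B1 is a subunit. The series design asks how the transcriptome of these cells changes after a stereoprobe or PladB.

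Long noncoding RNAs are made by RNA polymerase II and are usually capped and polyadenylated, but hold no long open reading frame. Antisense RNAs are read from the strand opposite a coding gene, often from a start close to that gene's own start, and are named for that gene. Many such RNAs stay in the nucleus and are degraded soon after they are made, so a large part of their steady pool can be young RNA. After alkylation, S4U in an RNA is copied as C in place of T, and reads that carry this conversion are T>C reads. The labelled share is the percent of an RNA's reads that are T>C reads, and it depends on how fast the RNA turns over, on how much was made in the pulse and on the density of label.

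The start regions of RNAs that rose or fell after PladB are shown first, since a start region is where transcription of each called RNA begins. The windows run from 250 bases before to 50 bases after the annotated start, 5′ to 3′ on the minus strand, from RefSeq on GRCh38.p14. LINC00628, EIF3J-AS1 and THUMPD3-AS1 were higher in PladB. Capitals mark the CCAAT box (CCAAT, or ATTGG on the other strand) in LINC00628 and THUMPD3-AS1, and the letters TGACNNNGC, the core of the antioxidant response element, in EIF3J-AS1.
LINC00628, chr1:204369670-204369969: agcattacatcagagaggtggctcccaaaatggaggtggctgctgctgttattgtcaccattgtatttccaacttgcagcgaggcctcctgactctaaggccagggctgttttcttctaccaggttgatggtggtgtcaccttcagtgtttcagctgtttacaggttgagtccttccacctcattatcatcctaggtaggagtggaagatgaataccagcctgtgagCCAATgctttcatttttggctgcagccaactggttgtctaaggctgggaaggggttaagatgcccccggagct
EIF3J-AS1, chr15:44536874-44537173: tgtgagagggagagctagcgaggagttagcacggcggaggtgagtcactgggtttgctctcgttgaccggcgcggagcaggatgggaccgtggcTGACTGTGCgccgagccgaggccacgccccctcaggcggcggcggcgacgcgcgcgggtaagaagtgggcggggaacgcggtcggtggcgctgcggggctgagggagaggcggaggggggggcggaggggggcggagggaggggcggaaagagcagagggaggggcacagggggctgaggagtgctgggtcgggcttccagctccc
THUMPD3-AS1, chr3:9396574-9396873: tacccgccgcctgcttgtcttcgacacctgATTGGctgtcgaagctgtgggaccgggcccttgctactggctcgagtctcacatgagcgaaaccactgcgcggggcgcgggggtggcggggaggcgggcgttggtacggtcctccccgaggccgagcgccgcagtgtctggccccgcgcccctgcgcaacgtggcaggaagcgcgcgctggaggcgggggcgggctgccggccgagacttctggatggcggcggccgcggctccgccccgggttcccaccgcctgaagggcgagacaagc

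ENTPD1-AS1 and LINC01234 were lower in PladB. Capitals mark CCAAT boxes in both windows, 1 in ENTPD1-AS1 and 3 in LINC01234, and 1 match to TGACNNNGC in LINC01234.
ENTPD1-AS1, chr10:96090186-96090485: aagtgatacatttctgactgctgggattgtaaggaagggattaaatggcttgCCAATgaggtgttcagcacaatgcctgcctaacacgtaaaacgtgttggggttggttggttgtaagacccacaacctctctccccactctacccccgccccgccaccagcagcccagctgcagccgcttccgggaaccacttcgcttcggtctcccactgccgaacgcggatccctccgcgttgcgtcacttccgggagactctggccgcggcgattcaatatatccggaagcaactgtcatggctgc
LINC01234, chr12:113773634-113773933: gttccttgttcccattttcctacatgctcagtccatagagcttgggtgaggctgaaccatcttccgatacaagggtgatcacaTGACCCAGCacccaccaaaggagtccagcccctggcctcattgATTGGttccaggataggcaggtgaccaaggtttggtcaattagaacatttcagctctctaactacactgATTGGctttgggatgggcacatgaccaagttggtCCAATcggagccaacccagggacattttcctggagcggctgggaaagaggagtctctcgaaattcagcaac

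Start windows were matched for 838 of the RNAs, 733 of them by symbol. Both strands were searched for 4 motifs. TGACNNNGC was held by 14.1% of these windows, against 13.6% of all 27305 RefSeq windows of the same length. The TATA box (TATAAA) was held by 12.1% against 12%, CCAAT by 35.6% against 35.7%, and the heat shock element core (GAANNTTC) by 7.28% against 6.87%. Of 21 windows of RNAs higher in all reads after PladB, 13 held CCAAT, 5 held TGACNNNGC, 2 held GAANNTTC and 0 held TATAAA. Of 8 windows of RNAs that were lower, 4 held CCAAT and 1 held TGACNNNGC. A match is a description of letters in the window and not a binding site. The median GC content was 53.5% in these windows, 58.3% in all windows, and 61.7% in the 329 windows of RNAs with enough reads to be tested.

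The library kit primes on poly(A) tails, so the annotated 3′ ends of RNAs described below are also shown. They are the last 30 bases of the matching GENCODE release 29 transcript, 5′ to 3′ on the RNA's strand, with a poly(A) signal (AATAAA or ATTAAA) in capitals where the window holds one.
LINC00628: tcagagacactATTAAAgattttaaaaatt
F11-AS1: ttatctttAATAAAttatctttagactaaa
TRHDE-AS1: attgctgtaaaaAATAAAgttcattttttt
ENTPD1-AS1: tatcttaaaaAATAAAtcgtctttctcaac
PCF11-AS1: caagttcaagAATAAAactttgcatcatta
CKMT2-AS1: ttatgataaaaaagtaaaaacctaaaaaag
SEPT7-AS1: atttgaaatttatcctattatttgaagact
WAC-AS1: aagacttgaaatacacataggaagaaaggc
The first 5 hold a signal, and CKMT2-AS1, SEPT7-AS1 and WAC-AS1 hold none in this window. A signal was in the last 30 bases of 493 of 974 RNAs with a sequence (50.6%), against 26.0% of 56070 GENCODE transcripts of noncoding types. That set holds every form of a gene and all processed transcripts, whatever their gene. Only the longest matched form of each RNA was used here, so the sets are unlike. The share was about the same in RNAs with at least 1000 reads (61 of 128, 47.7%) and in those with under 20 reads (231 of 457, 50.5%).

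The intervals span whole genes, introns included, and all of the 1169 lie on the minus strand. Their median length was 11333 bases, with a range from 396 to 1100142, against 1015 for coding intervals, which cover 3′ ends only. The longest spliced form covered a median of 11% of the interval. A read count here can therefore hold spliced RNA, unspliced RNA and other RNA of the same strand. In 38 of the RNAs the interval overlapped that of another gene on the same strand, and in 21 of these the other gene's interval had more than 50% as many reads. LINC00886, with the most reads of all, is of this kind: its interval holds PA2G4P4, a pseudogene, whose own interval had 99% as many reads. Overlaps with genes beyond these intervals are not in the count of 38. In GENCODE, 174 of 1072 RNAs had an exon of another gene on the same strand within their span, and 27 had one of a coding gene. The setting without same-strand overlap, used below, leaves out the 38 only. Reads that map to several places made up more than 50% of the reads of 141 RNAs. RefSeq on GRCh38.p14 lists 17 of the RNAs as protein coding today, among them LINC00998 (now SMIM30) and LINC00116 (now MTLN, a small mitochondrial protein).

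Reads were spread very unevenly over these RNAs. Of the 1169, 357 had no read in any library, 633 had at least 20 reads over the 12 libraries, and 158 at least 1000. The 10 RNAs with the most reads held 36.7% of the 1239076 reads. The 10 with the most T>C reads held 46.0% of the 268951 T>C reads. Among those with the most reads were LINC00886 (118030 reads), LINC01296 (50958), F11-AS1 (37325) and FGD5-AS1 (34522). Per kilobase of interval the order differed, with LINC00998 at 16753 reads per kilobase, FGD5-AS1 at 6096 and F11-AS1 at 174.

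Library totals ran from 24670716 to 42190854 reads, of which 79523 to 136104 were on these RNAs. T>C reads on them ran from 15964 to 32208 per library, and the PladB libraries had 21020, 16039 and 15964. The labels do not say that replicates were separate cultures, so the spread that p-values rest on may be technical. In bulk RNA, fewer cells that make an RNA and less RNA per cell cannot be told apart. All 7 prostate luminal markers examined were read in every library, with KLK3 at 1.87 to 8.62 CPM and FOXA1 at 230.4 to 382 CPM. The CPM of markers are relative to the library total. Of 11 markers of other cells, CD3E, LYZ, COL1A2, VWF and CDH5 were at 0 in all 12 libraries, and PTPRC, PECAM1, CD79A and DCN were at 0 in 11, 11, 8 and 4. The fibroblast genes COL1A1 (1.16 to 5.59 CPM) and LUM (2.37 to 7.2 CPM) had reads in every library, at levels near that of KLK3. Where 54 of the intervals held a plus-strand coding interval with at least 1000 reads, the RNA itself had fewer reads than that interval in 48 cases, and the median over the 54 was 2.41% of its reads.

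The labelled share of these RNAs was at least 2.33 times that of coding genes in every library, and it was lower after PladB. In DMSO the labelled share of all their reads was 22.8%, 23.8% and 22.4% in replicates 1 to 3. In PladB it was 16.8%, 16.9% and 16.9%, below every DMSO library. The means were 23.0% ± 0.715 (SD, n = 3) and 16.9% ± 0.0933, a difference of -6.14 percentage points (exact two-sided permutation p = 0.1, the smallest that 3 against 3 allows, and 0.4 adjusted over 4 comparisons). Without CKMT2-AS1, a setting chosen after seeing the data, the means were 20.8% ± 0.364 and 14.7% ± 0.218. CKMT2-AS1 held 30142 of the 268951 T>C reads. Whether its T>C reads, and those of F11-AS1 and LINC00886, came from labelling was not tested, as given below. WX-02-23 libraries stood at 23.7%, 22.9% and 24.2% and WX-02-43 libraries at 24.4%, 22.2% and 23.6%, so both stereoprobe groups overlapped DMSO. Their differences from DMSO were 0.597 and 0.385 points (exact permutation p = 0.4 and 0.7), within the spread of replicates.

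Coding genes had a lower labelled share after PladB as well, and by a larger factor in these libraries. It was 9.42% ± 0.427 in DMSO and 5.43% ± 0.192 in PladB. The labelled share of the long noncoding and antisense RNAs divided by that of coding genes had a mean of 2.45 ± 0.182 in the DMSO libraries and 3.11 ± 0.125 in the PladB libraries (SD, n = 3), without overlap (exact permutation p = 0.1, adjusted p = 0.2 over 4 comparisons). This ratio was chosen after seeing the data. Other noncoding genes, without ANKRD30BL, stood between at 17.8% ± 0.621 in DMSO and 13.6% ± 0.266 in PladB. ANKRD30BL was left out after seeing the data because its interval alone had a labelled share of 83.2% in DMSO and 81.8% in PladB. The place of other noncoding genes between the classes holds only without it, and their share with it is not given here. CKMT2-AS1, also with a high labelled share, was kept among the long noncoding and antisense RNAs.

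**Figure D1:**
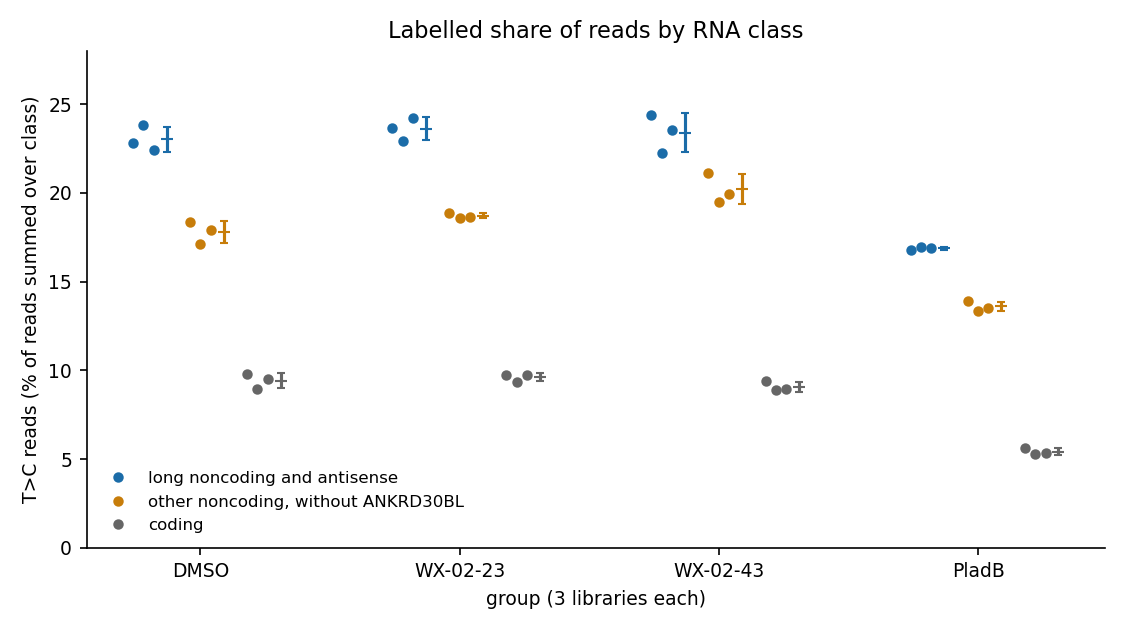
Labelled share (T>C reads as a percent of reads summed over a class) on the y axis for the 4 groups on the x axis. Points are libraries, and bars are the mean ± SD of 3. Long noncoding and antisense RNAs sit near 23% in DMSO and both stereoprobe groups and near 17% in PladB, above coding genes throughout.

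LINC and antisense RNAs had labelled shares that overlapped in DMSO. LINC RNAs went from 22.4% ± 0.865 labelled in DMSO to 17.1% ± 0.284 in PladB, and antisense RNAs from 23.4% ± 0.889 to 16.7% ± 0.221. The few intronic RNAs, which are read from the sense strand inside introns, went from 48.0% ± 5.42 to 18.3% ± 6.40. The PladB libraries lay below the DMSO libraries in each of the 3 kinds. As a part of all reads on genes these RNAs made up 0.591% ± 0.0126 in DMSO and 0.576% ± 0.00282 in PladB. As a part of T>C reads they made up 1.20% ± 0.0656 and 1.30% ± 0.0205 (exact permutation p = 0.1, adjusted p = 0.4 over 4 comparisons). The stereoprobe groups had similar means to PladB, at 1.28% ± 0.0621 in WX-02-23 and 1.31% ± 0.0557 in WX-02-43. Their libraries overlapped DMSO.

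Conversions per covered T, unlike the labelled share, set the stereoprobe groups apart from DMSO. In these RNAs the DMSO libraries had 1.70% ± 0.0551 of covered T converted (SD, n = 3). WX-02-23 libraries had 2.06% ± 0.0448, WX-02-43 libraries 2.46% ± 0.184 and PladB libraries 1.07% ± 0.00773. Coding genes had the same order at 0.705%, 0.809%, 0.91% and 0.317%. Conversions per covered T thus moved with the groups in both classes. The measure depends both on the labelled share and on conversions per T>C read, which were not separated here. The part of conversion depth in the labelled share was not tested.

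In DMSO, 169 of the RNAs had at least 200 reads over the 3 libraries, and their labelled shares ranged from 0% to 93.9% with a median of 21.7% and quartiles of 11.6% and 32.5%. The 10607 coding genes with that depth had a median of 9.31% and quartiles of 4.98% and 16.5%. Of the 169 RNAs, 138 lay above the median of coding genes, 100 above their upper quartile and 12 above 50%. The median was 18.1% for 32 intervals under 5000 bases, 20.1% for 86 from 5000 to 50000 and 25.8% for 51 of 50000 or more. These RNAs differ in depth and in T content as well as in length, so this is a description.

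Individual RNAs spanned the whole range of labelling. CKMT2-AS1, an antisense RNA of the mitochondrial creatine kinase gene CKMT2, was T>C in 8522 of 9071 DMSO reads. Its labelled share lay between 92.3% and 95.9% in all 12 libraries, the PladB libraries included (94.8%, 95.9% and 95.4%). Its T>C reads carried 1.04 conversions each, against a median of 2.05 over the RNAs, and no library without S4U was analysed here, so whether its T>C reads came from labelling was not tested. F11-AS1 had 1.05 conversions per T>C read and LINC00886 had 1.31, and the same holds for them.

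Next in labelled share came PCF11-AS1 (183 of 225 DMSO reads, 81.3%), the antisense RNA of the 3′ end processing factor PCF11. LINC01004 followed at 75.8% in DMSO and 38.7% in PladB, then LINC00461 at 68.5%, ADAMTSL4-AS1 at 63.9% and 36.3%, and LINC-PINT, a p53-induced RNA, at 62.0% and 34.2%. ADAMTSL4-AS1 overlaps the coding gene MCL1 on the same strand, and how much of its share comes from MCL1 was not tested. At the other end, LINC01726 had 0 T>C reads of 794 in DMSO, which allows a share of up to 0.378%, and 99% of its reads mapped to several places. SAPCD1-AS1 (2.19%), TRPM2-AS (2.81%) and ELFN1-AS1 (3.24%) were also little labelled. These limits cover counting error only, since the reads carry no molecular identifiers.

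With at least 200 reads in DMSO and in PladB, 149 RNAs could be compared one by one. Of these, 118 had a lower and 30 a higher labelled share in PladB, and the median ratio of PladB to DMSO was 0.606. Of 9722 coding genes with that depth, 8228 were lower, with a median ratio of 0.495. NFYC-AS1 had labelled shares of 74.7%, 37.7% and 56.3% in the DMSO libraries and 6.92%, 10.4% and 16.3% in the PladB libraries. Its groups did not overlap, and its reads rose at the same time, as given below.

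TRHDE-AS1 went from labelled shares of 41.3%, 50.5% and 30.2% in DMSO to 3.16%, 0% and 0% in PladB. NNT-AS1, antisense of the mitochondrial transhydrogenase gene NNT, had 38%, 30.8% and 34.5% in DMSO and 25.1%, 16.6% and 17.5% in PladB, also without overlap, with 67% of its reads mapping to several places. FGD5-AS1 showed no such gap, with 5.53%, 7.21% and 5.25% in DMSO and 5.59%, 6.15% and 6.8% in PladB, which overlapped. LINC01139, also chosen after its values were seen, had the largest rise of the 149, from 12 of 299 reads to 120 of 201, but its libraries scattered from 0% to 11.3% in DMSO and from 0% to 85.6% in PladB, so the groups overlapped.

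**Figure D2:**
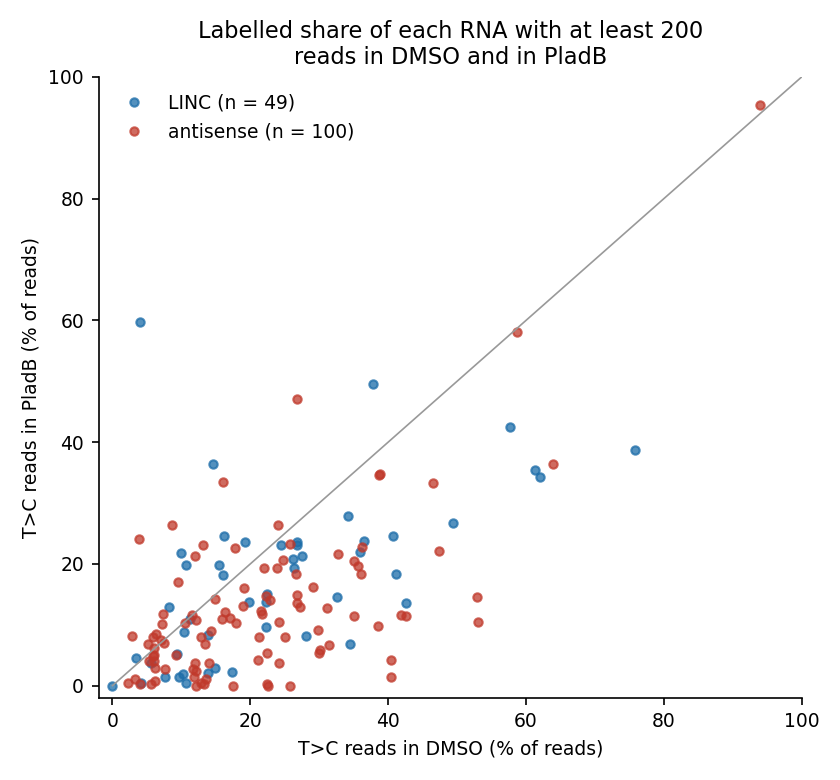
Labelled share in PladB (y axis, percent of reads) against that in DMSO (x axis, percent of reads), 1 point per RNA with at least 200 reads in each group, 49 LINC and 100 antisense RNAs. The grey line marks equal shares: 118 points lie below it and 30 above, and CKMT2-AS1 is the point at 93.9% and 95.3%.

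The comparison of PladB with DMSO in T>C reads asks which of these RNAs had more or fewer T>C reads after scaling between libraries. LINC00116, F11-AS1 and 10 others rose, while LINC00998, TRHDE-AS1, GCC2-AS1, TET2-AS1 and STEAP2-AS1 fell. Of the 1169 RNAs, 280 had enough T>C reads to be tested among 11521 genes. With edgeR's quasi-likelihood test and Benjamini-Hochberg adjustment over all genes, 12 were higher and 5 lower at adjusted p under 0.05. That is 4.29% higher and 1.79% lower, beside 4.55% and 5.62% of all genes tested (10.2% in either direction). The median log2 change was 0.06 for these RNAs and -0.35 for all genes tested. A change here is relative to the T>C reads of a library after TMM scaling, and not to their plain sum. The TMM factors were 1.05 to 1.10 in DMSO and 0.78 to 0.81 in PladB. Log2 changes in PladB therefore lie above those relative to the plain sum.

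That scale matters, because T>C reads as a whole fell in PladB. With T>C reads scaled to all reads instead, 3 RNAs were higher, LINC00116 and SEPT7-AS1 among them, and 18 lower, beside 0.825% and 15.7% of all genes, and the medians were -0.64 for these RNAs and -1.15 for all genes. Of the 17 calls, 8 held on that scale. LINC00886 (0.43, adjusted p = 0.0439, up to 0.208 without a library, and not called by DESeq2, with RLE size factors or with summed intervals) turned to -0.36, and F11-AS1, CKMT2-AS1, LINC01106, LINC00938, EIF3J-AS1, LINC00324, LINC01399 and PINK1-AS were no longer called.

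LINC00116 (chromosome 2, 110969106 to 110980517 in hg19) stood at 43.6, 69.2 and 67.7 CPM in DMSO and at 302, 178 and 429 CPM in PladB. Its groups did not overlap, and the log2 change was 2.33 (SE 0.39, edgeR adjusted p = 3.89e-05).

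LINC00324 (chromosome 17, 8123948 to 8127361) went from 31.1, 21.3 and 31.7 CPM of T>C reads in DMSO to 127, 96.4 and 142 CPM in PladB, without overlap (log2 change 2.12, adjusted p = 0.012). Without DMSO replicate 2 LINC00324 was not called (adjusted p = 0.0642). F11-AS1, antisense of the gene of coagulation factor XI, went from 496, 382 and 709 CPM to 1409.6, 1161 and 1344 CPM (log2 change 1.30, adjusted p = 8.89e-06). In GENCODE it overlaps a coding gene with a clone name on the same strand. CKMT2-AS1 went from 1146, 1824 and 1248 CPM to 2382, 2818 and 2409 CPM (log2 change 0.85, adjusted p = 0.00014). Both had groups that did not overlap, but on the scale of all reads their changes were 0.50 and 0.07 and were not called.

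Every DMSO library lacked T>C reads of SEPT7-AS1, antisense of a septin gene (chromosome 7, 35794574 to 35840235). It had 10.1, 25.1 and 41.4 CPM in PladB, 13.5, 17.1 and 9.97 CPM in WX-02-23, and 13.1, 50.8 and 6.77 CPM in WX-02-43. The libraries of all 3 compounds thus lay above DMSO, and against a floor of 3 counts per library PladB was at least 17.4-fold higher (adjusted p = 0.00411). The adjusted p was 0.16 for WX-02-23 and 0.121 for WX-02-43, so neither was called. All reads of SEPT7-AS1 did not separate, at 4.37, 1.66 and 2.34 CPM in DMSO and 2.96, 4.89 and 7.03 CPM in PladB.

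The remaining rises were LINC01106 (log2 change 1.29, with 95% of its reads mapping to several places), LINC00938 (1.42), PINK1-AS (1.53), LINC01399 (1.55) and EIF3J-AS1 (1.62). PINK1-AS overlaps DDOST on the same strand, and its call was lost without DMSO replicate 1 or 3 or PladB replicate 1 (adjusted p up to 0.148). EIF3J-AS1 was not called without DMSO replicate 2 or PladB replicate 3 (up to 0.187), LINC00938 without PladB replicate 2 (0.0615) or LINC01399 without DMSO replicate 2 (0.0505).

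Among the RNAs that fell, LINC00998 (chromosome 7, 112756773 to 112758637), now listed as the gene of the small membrane protein SMIM30, had 63.2, 122 and 111 CPM of T>C reads in DMSO and 38.7, 33.1 and 13.8 CPM in PladB. The groups did not overlap, and the log2 change was -1.78 (SE 0.45, adjusted p = 0.00708). Its total reads hardly moved, from 152 ± 21.4 to 149 ± 9.91 CPM (SD, n = 3), so its labelled share went from 7.57% to 1.35%. TRHDE-AS1 (chromosome 12, 72647287 to 72667289), antisense of the gene of the thyrotropin-releasing hormone degrading enzyme, had 55.6, 58.9 and 33.6 CPM in DMSO and 3.87, 0 and 0 CPM in PladB. The log2 change was -5.04 (SE 1.16, adjusted p = 0.00276), without overlap.

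The other 3 had no T>C read in any PladB library. GCC2-AS1 stood at 16, 13.6 and 12 CPM in DMSO, at least 4.89-fold lower in PladB. TET2-AS1 stood at 40.9, 16.9 and 5.28 CPM, at least 7.41-fold lower. STEAP2-AS1, antisense of the prostate metalloreductase gene STEAP2, stood at 0, 18 and 33.1 CPM, at least 6.0-fold lower (adjusted p = 0.0405), but its 0 in DMSO replicate 1 equals the PladB libraries. GCC2-AS1 was not called without PladB replicate 1 (adjusted p = 0.054). TET2-AS1 kept its call only without DMSO replicate 3 (adjusted p up to 0.155 without another library), and STEAP2-AS1 only without DMSO replicate 1 (up to 0.109). With summed intervals neither was called (0.0537 and 0.0684), and TET2-AS1 was not called with a replicate block (0.065). All reads of STEAP2-AS1 were level, at 7.62 ± 1.37 CPM in DMSO and 7.8 ± 4.83 in PladB.

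All reads, labelled or not, showed more of these RNAs higher than lower after PladB. LINC00628, CAPN10-AS1 and CD81-AS1 were among those that rose, and OTUD6B-AS1, WAC-AS1, ENTPD1-AS1 and LINC01234 among those that fell. Of 459 RNAs tested among 14466 genes, 28 were higher and 13 lower (edgeR, adjusted p under 0.05). That is 6.1% higher and 2.83% lower, beside 12.6% and 15.3% of all genes tested (27.9% in either direction). The median log2 change was 0.07 for these RNAs and -0.08 for all genes. For the antisense RNAs alone, 19 of 256 were higher and 9 lower with a median of 0.18, and for the LINC RNAs 9 of 195 were higher and 4 lower with a median of -0.03. Leaving out each library in turn left 25 of the 41 called every time, 18 higher and 7 lower.

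LINC00628 (chromosome 1, 204337558 to 204338847), a single-exon RNA, was at 0, 0.185 and 0 CPM in DMSO and at 17.4, 7.97 and 19.7 CPM in PladB. It went from almost no reads to a clear signal in every PladB library, and the edgeR log2 change was 7.83 (SE 1.16, adjusted p = 2.23e-06). The size of this change rests on 1 DMSO library with reads. CAPN10-AS1 (chromosome 2, 241522167 to 241525733) stood at 4.37, 3.02 and 1.66 CPM in DMSO and 24.4, 23.4 and 23.5 CPM in PladB, with tight PladB libraries and no overlap (log2 change 2.97, adjusted p = 0.000105).

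CD81-AS1 (chromosome 11, 2349979 to 2399222), antisense of the tetraspanin gene CD81, went from 19.9, 16.1 and 44 CPM to 84.8, 67 and 80.5 CPM (log2 change 1.54, SE 0.25, adjusted p = 1.1e-05). THUMPD3-AS1, chosen after its values were seen, went from 31.4, 22.4 and 24 CPM to 60.3, 75.1 and 60.5 CPM (1.33, adjusted p = 6.41e-06), and it overlaps the coding gene SRGAP3 on the same strand. EIF3J-AS1, named for a translation initiation factor gene, went from 32.1, 39.3 and 37.3 CPM to 80.8, 74.6 and 86.5 CPM (1.15, adjusted p = 6.93e-06). In all 3 the lowest PladB library lay above the highest DMSO library.

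F11-AS1 went from 176, 119 and 188 CPM to 275, 228 and 258 CPM in all reads (log2 change 0.65, edgeR adjusted p = 0.000345). LINC00116 went from 71.1, 96.6 and 89.8 CPM to 168, 137 and 165 CPM (0.87, adjusted p = 6.48e-06). Neither had groups that overlapped.

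NFYC-AS1 went from 4.05, 8.5 and 8.62 CPM to 22.1, 28.9 and 18.8 CPM in all reads (log2 change 1.72, adjusted p = 0.000614), while its labelled share fell as given above. KMT2E-AS1 (1.84), LINC02087 (1.63), MKLN1-AS (1.62), LINC00324 (1.41), LINC00665 (0.69) and FLVCR1-AS1 (1.07, chosen after its value was seen) rose as well. CALML3-AS1 (4.33) and GPR158-AS1 (4.52) had larger fitted changes but few reads in DMSO, and 98% of the reads of CALML3-AS1 mapped to several places. MKLN1-AS was not called without DMSO replicate 1, PladB replicate 1 or PladB replicate 2 (adjusted p up to 0.113), and GPR158-AS1 not without DMSO replicate 2 or 3 or PladB replicate 1 or 2 (up to 0.121).

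OTUD6B-AS1, antisense of a deubiquitinase gene, had the smallest adjusted p of the falls, with 121, 113 and 111 CPM in DMSO and 70.8, 49.8 and 61.5 CPM in PladB (log2 change -0.92, SE 0.14, adjusted p = 3.72e-06). WAC-AS1 (chromosome 10, 28808846 to 28821283) went from 106, 69.2 and 109.6 CPM to 49.9, 50.6 and 61 CPM (-0.82, adjusted p = 0.000135). ENTPD1-AS1 (chromosome 10, 97512963 to 97849992), antisense of the gene of the ectonucleotidase CD39, went from 82.8, 67 and 79.9 CPM to 42.7, 45.4 and 44.4 CPM (-0.79, adjusted p = 0.000104). None of these had groups that overlapped.

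LINC01234 (chromosome 12, 114182382 to 114211488), also chosen after its values were seen, went from 59.1, 67.8 and 57.2 CPM to 38.2, 38.2 and 37.7 CPM (log2 change -0.69, adjusted p = 0.00159), again without overlap. ASB16-AS1 went from 32, 30.7 and 21.5 CPM to 8.56, 20.8 and 3.9 CPM (-1.34, adjusted p = 0.00246), with 1 PladB library just under the lowest DMSO library. LINC00174 (-2.49), LINC01268 (-1.95), CCDC18-AS1 (-1.40), MCPH1-AS1 (-0.91) and MAPKAPK5-AS1 (-0.73) fell too. Each of these 5 lost its call without at least 1 library: CCDC18-AS1 without DMSO replicate 2 (adjusted p = 0.053), LINC01268 without DMSO replicate 3 or PladB replicate 3 (up to 0.0683) and MCPH1-AS1 without DMSO replicate 1 or PladB replicate 2 (up to 0.128). LINC00174 lost it without DMSO replicate 2 or PladB replicate 1 or 2 (up to 0.272), and MAPKAPK5-AS1 without any library but DMSO replicate 2 and PladB replicate 3 (up to 0.225). OR2A1-AS1 (-0.97) and LINC01296 (-0.52) also fell, with 92% and 96% of their reads mapping to several places, and neither was called with such reads subtracted.

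**Figure D3:**
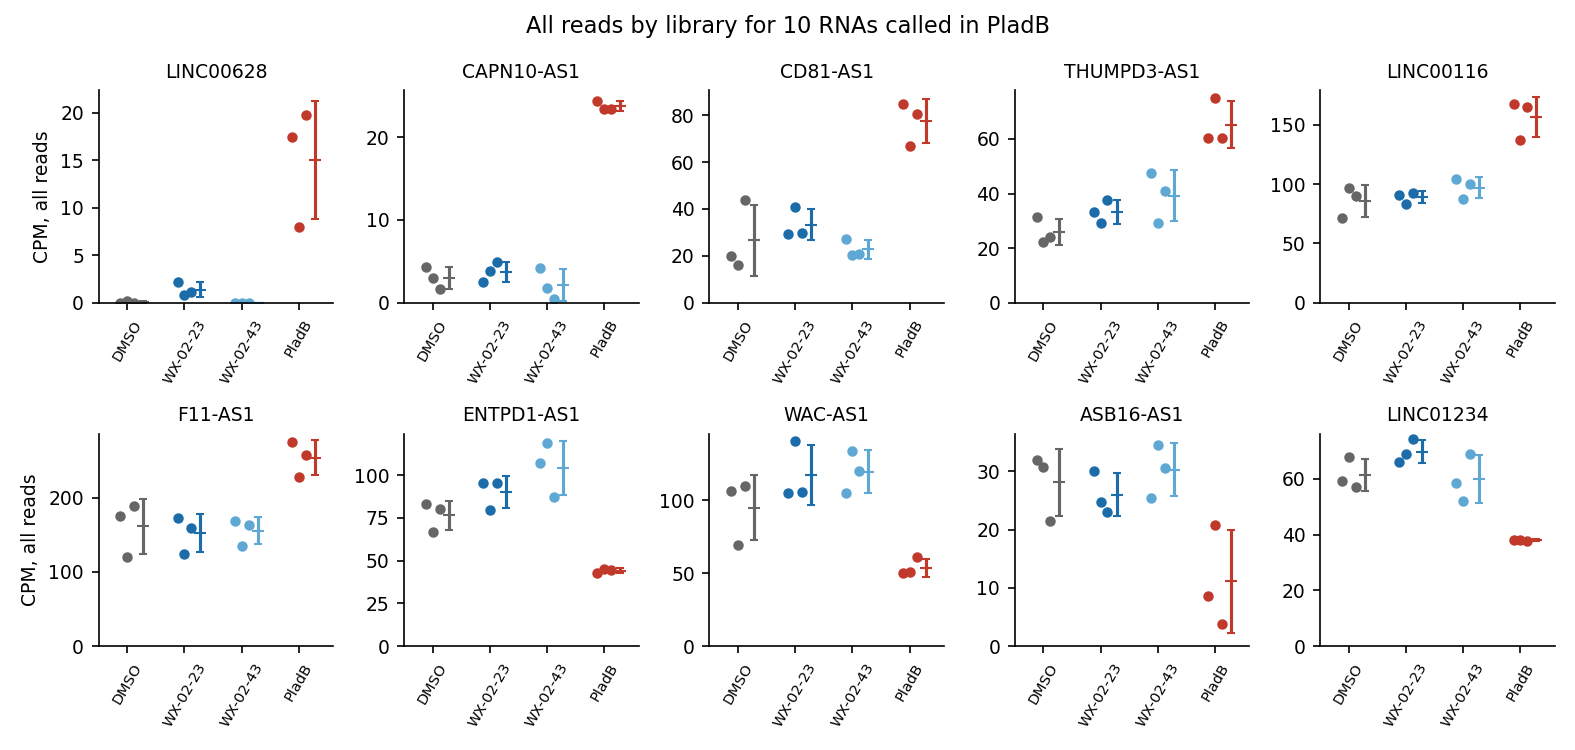
CPM of all reads (y axis, from 0) by group (x axis) for 10 RNAs called in PladB, chosen after their values were seen. Points are libraries and bars the mean ± SD of 3. In the first 6 panels PladB lies above the other groups, and in the last 4 below them.

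Of the 28 RNAs that rose in all reads after PladB, 11 had short intervals. Of 112 tested RNAs with an interval under 5000 bases, 11 were higher and 1 lower in PladB, with a median log2 change of 0.50. Of 211 from 5000 to 50000 bases, 14 were higher and 9 lower (median -0.16), and of 136 with 50000 bases or more, 3 were higher and 3 lower (median -0.0014). Of all genes tested in all reads, whatever their length, 12.6% were higher and 15.3% lower. In T>C reads the medians were 0.91 for 58 short intervals, -0.13 for 135 intermediate ones and 0 for 87 long ones. The difference between length classes was not tested, and short intervals also hold more reads per base.

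**Figure D4:**
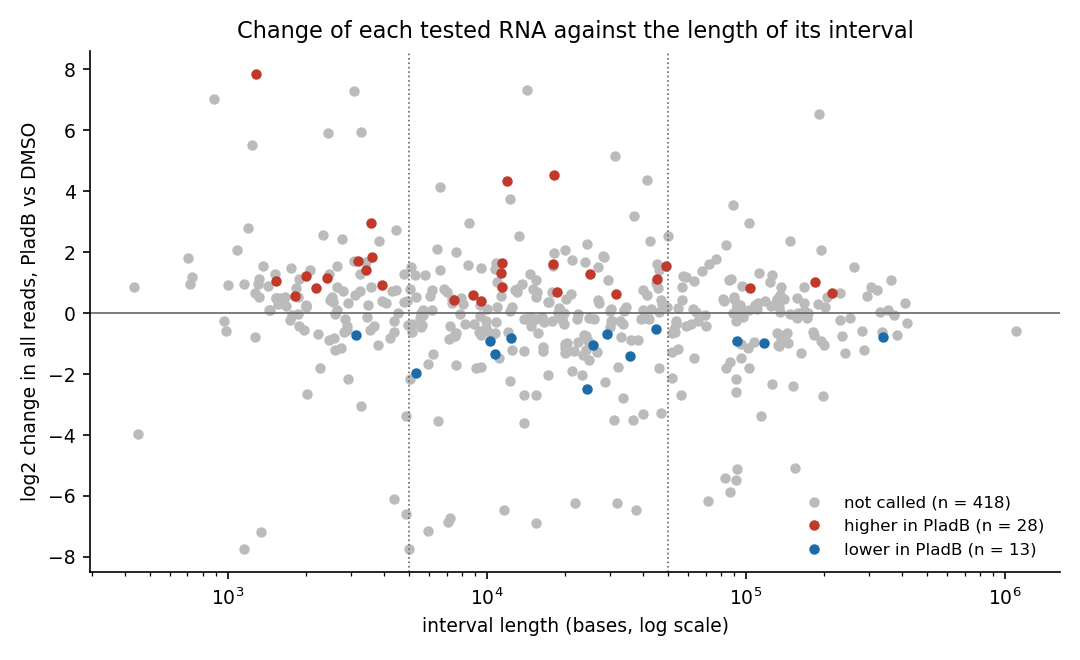
Log2 change in all reads, PladB against DMSO (y axis), against interval length in bases (x axis, log scale) for 459 tested RNAs, coloured by call. Of the 28 higher RNAs 11 lie under 5000 bases, and 3 of the 28 at 50000 bases or more. Of all genes tested, 12.6% were called higher.

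Antisense RNAs and their sense genes could be set side by side for 209 pairs with both tested in all reads. Of 16 antisense RNAs called higher in PladB in these pairs, 5 had a sense gene that was lower, 1 a sense gene that was higher and 10 a sense gene that was not called. MKLN1 went from 126 ± 10.51 to 48.6 ± 8.80 CPM (SD, n = 3; log2 change -1.37) beside the rise of MKLN1-AS. NFYC (-1.09), KMT2E (-1.05), EIF3J (-0.42) and FBXL19 (-3.10) were the other lower sense genes. FBXL19-AS1 was not called without DMSO replicate 2 or 3 (adjusted p up to 0.0865). CD81 rose with its antisense RNA, from 782 ± 20.2 to 1098 ± 79.8 CPM (0.49).

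The sense genes of WAC-AS1, CAPN10-AS1 and THUMPD3-AS1 were not called. Of 6 antisense RNAs called lower, 1 had a higher sense gene and 5 a sense gene that was not called. Over the 209 pairs both members were called in 7, only the antisense RNA in 15, only the sense gene in 57 and neither in 130. The sense genes, 207 in all, were higher in 18 pairs and lower in 46. Spearman's rho between the changes of both members was -0.08 over the pairs, which share libraries, as a description. In T>C reads, among 120 pairs, 7 antisense RNAs were called (3 higher, 4 lower) and 16 sense genes (5 higher, 11 lower), with no pair in both. Those counts are too small to read anything from the missing overlap.

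**Figure D5:**
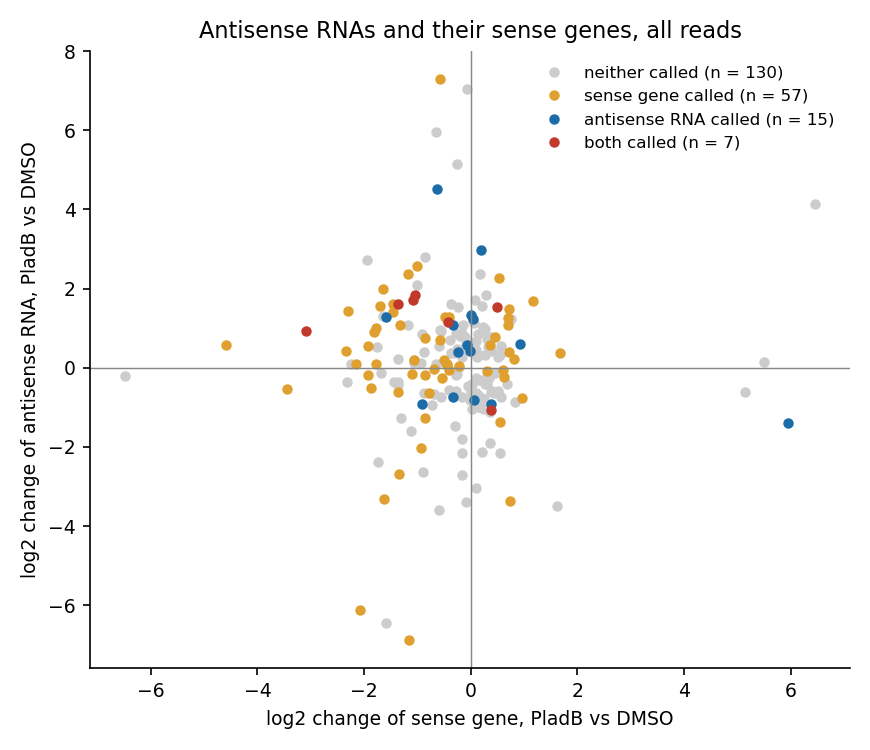
Log2 change of the antisense RNA (y axis) against that of its sense gene (x axis), all reads, PladB against DMSO, 1 point per pair, coloured by which member was called. In 15 pairs the antisense RNA alone was called, in 57 the sense gene alone and in 7 both.

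Antisense RNAs that start close to the sense gene, from 200 bases of overlap to 1000 bases apart in RefSeq on GRCh38.p14, numbered 83, of which 59 were tested in all reads. Of these, 5 were higher and 1 lower in PladB, with a median log2 change of 0.39. Of 259 that start farther away, 116 were tested, 8 were higher and 3 lower, with a median of 0.03. Beside these counts, 12.6% of all genes tested were higher and 15.3% lower. In DMSO the 2 kinds of antisense RNA had like labelled shares, with medians of 21.2% (21 RNAs) and 21.6% (57 RNAs). The close ones also had shorter intervals, at a median of 5587 bases against 10056.

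After WX-02-23, LINC00628 was the only one of these RNAs that edgeR called, in all reads. In T>C reads 0 of 280 were called against DMSO by edgeR (DESeq2 called 1), beside 0.208% of all genes tested. At an unadjusted edgeR p under 0.05 there were 30 of the 280, beside 539 of all 11521 genes tested. In all reads 1 of 459 was called, LINC00628, beside 0.698% of all genes tested. LINC00628 was at 0, 0.185 and 0 CPM in DMSO and at 2.23, 0.808 and 1.12 CPM in WX-02-23, low but above every DMSO library (log2 change 4.41, adjusted p = 0.04). The call was lost without DMSO replicate 1, DMSO replicate 3 or WX-02-23 replicate 1 (adjusted p up to 0.148), and also with a replicate block, summed intervals or multimapping reads subtracted (up to 0.0838).

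After WX-02-43 none of these RNAs was called by edgeR. In T>C reads 0 of 280 passed (DESeq2 called 1), beside 0.0868% of all genes tested. An unadjusted edgeR p under 0.05 was reached by 17 of the 280, beside 457 of all 11521 genes tested. In all reads 0 of 459 passed (DESeq2 called 1, WEE2-AS1), beside 0.152% of all genes tested. There the unadjusted p was under 0.05 for 19 of the 459, beside 846 of all 14466 genes tested. WEE2-AS1, named because DESeq2 called it, stood at 8.69, 10 and 5.42 CPM in DMSO, 21.4, 20.6 and 26 CPM in WX-02-43 and 17, 14.5 and 17.6 CPM in WX-02-23. Both stereoprobe groups lay above DMSO, with log2 changes of 1.49 (adjusted p = 0.0716, edgeR) and 1.02 (adjusted p = 0.245).

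LINC00116 stood at 133, 139 and 58.4 CPM of T>C reads in WX-02-23 and 126, 94.7 and 93.8 CPM in WX-02-43, and was not called by edgeR. The 3 compounds share the DMSO libraries.

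WX-02-23 and WX-02-43 had the same dose and time, and 1 pair of compounds was compared. In T>C reads 0 of 280 RNAs differed by edgeR (and 0 by DESeq2), beside 0.0347% of all genes tested. An unadjusted edgeR p under 0.05 was reached by 14 of the 280, beside 338 of all 11521 genes tested. In all reads 1 of 459 differed, LINC00628, beside 0.152% of all genes tested. It had no read in any WX-02-43 library and was at least 8.02-fold higher in WX-02-23 against a floor of 3 counts per library (adjusted p = 0.00963). DESeq2 did not call it, and the edgeR call was lost without any 1 of the 3 WX-02-43 libraries (adjusted p up to 0.0989).

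For well-measured RNAs the interval of the difference between the stereoprobes was narrow. The log2 difference in T>C reads was 0.11 (95% interval -0.28 to 0.50) for F11-AS1 and -0.15 (-0.46 to 0.16) for CKMT2-AS1. For LINC00116 it was 0.07 (-0.67 to 0.82). For most it was wide: the median half-width over the 279 RNAs with a computed interval was 3.27, and 27 had a half-width under 1. The labelled share of all these RNAs differed by 0.213 percentage points between the stereoprobes (exact permutation p = 0.9), less than the SD of either group. Divided by that of coding genes, a ratio chosen after seeing the data, it was 2.46 ± 0.0314 in WX-02-23 and 2.58 ± 0.0686 in WX-02-43. On that ratio the stereoprobe groups did not overlap each other, and the DMSO libraries overlapped both.

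Among long noncoding RNAs with a described role, LINC00665 and MAPKAPK5-AS1 were called after PladB. Of a list of 50 such RNAs, 27 are among the intervals and 22 had at least 20 reads. In T>C reads 16 were tested and 0 were called by edgeR in any of the 4 comparisons, beside 17 of the 280 RNAs and 10.2% of all genes tested in PladB. In all reads 18 were tested in PladB, where 1 was higher and 1 lower, beside 41 of the 459 RNAs and 27.9% of all genes tested. Their median log2 change was 0.16, and that of all genes tested was -0.08. LINC00665 went from 101, 125 and 101 CPM to 148, 193 and 183 CPM, and MAPKAPK5-AS1 from 28, 22.1 and 29.1 CPM to 15.7, 10.9 and 21.2 CPM, both without overlap. MAPKAPK5-AS1 (adjusted p = 0.0468) was called in 2 of 7 other fits. It was not called by DESeq2, with RLE size factors, with TMM from coding genes, with no low-count filter or with summed intervals (adjusted p up to 0.0606), nor without 4 of the 6 libraries in turn. LINC-PINT stood at 9.61, 13.7 and 8.28 CPM in DMSO and 14, 13.1 and 12.3 CPM in PladB, which overlapped.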

How the data were processed

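SLAM-seq libraries of 22Rv1 cells were analysed, 3 for each of 4 groups, grouped by the treatment in the labels. Per the file headers, the authors counted reads with slamdunk 0.4.3 over intervals of curated RefSeq transcripts; per the submitters' processing notes the genome was hg19. The strand rule, filters and masking of variants are not given in the sources used here. Per the file headers, the deposited files give raw counts of reads, T>C reads, multimapping reads, covered T positions and conversions, and a CPM that yields the library total. The deposited conversion rate is a fraction of covered T positions and was recomputed from the counts. Each file held 29255 intervals, 1329 of them of the RNAs described.

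The RNAs and the gene lists were chosen with earlier results of these data known. Counts of 1 interval per gene, coding and noncoding together, were fitted with edgeR 4.0.16 in R 4.3.3 (quasi-likelihood, all 12 libraries, group only, TMM, filterByExpr, Benjamini-Hochberg over all genes tested, adjusted p under 0.05). For T>C reads the library size was that of T>C reads. CPM of single genes are TMM-scaled, except those of cell type markers, which are relative to the library total. Class measures, 1 value per library, were compared by exact two-sided permutation tests, adjusted over 4 comparisons; 3 against 3 cannot give p under 0.1. Named RNAs are up to 10 per direction called in a comparison by size of change, the 10 with most reads, the 10 with most T>C reads, the 5 highest and 5 lowest labelled shares, a list of described RNAs and sense genes of all these; others are said to be chosen after their values were seen. Some RNAs that this rule names are not reported here. Alternatives were DESeq2 1.42.0, RLE size factors, TMM from coding genes, no low-count filter, a replicate block, summed intervals, multimapping reads subtracted, T>C reads scaled to all reads, members without same-strand overlap or without the 5 with most reads, and each replicate left out. The fits were also run on simulated counts with a lower dispersion than fitted here (0.2185 in all reads, 0.7864 in T>C reads). That run cannot show how the fits perform at the spread of these data. Python 3.11.15 with pandas 2.3.3 and numpy 2.4.6 did the rest. Names and positions of the intervals are those of the deposited files, in hg19. Start windows, start distances and present-day gene names came from RefSeq (GRCh38.p14). Exons and 3′ ends came from GENCODE release 29, where 1072 of 1169 RNAs were found.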

Additional observations from a re-analysis of the deposited data

How the results depend on the processing

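Of the 17 RNAs called in T>C reads after PladB, 8 were called without each library in turn (6 higher, 2 lower) and 5 in every fit run; of the 41 called in all reads, 25 and 22. Leaving out each library gave 12 to 18 calls in T>C reads and 33 to 44 in all reads for PladB, 0 to 1 in all reads for WX-02-23, for WX-02-43 and between the stereoprobes, and 0 to 1 in T>C reads for WX-02-23. DESeq2 gave 26 calls in T>C reads for PladB (17 by edgeR), 1 in T>C reads for WX-02-23 and 1 for WX-02-43, and in all reads 2 for WX-02-23, 1 for WX-02-43 and 0 between them. For WX-02-23 in all reads, summed intervals gave 0 calls and subtracting multimapping reads gave 0. LINC01492 turned from 1.02 to -0.35 in all reads after PladB with multimapping reads subtracted, and LINC00886 from 0.43 to -0.36 in T>C reads scaled to all reads. The causes were not tested.

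Replicate numbers did not pair the samples by the measure used. That measure correlates departures of log2 CPM from the group mean between libraries of different groups, over genes with enough reads. Same-numbered libraries gave -0.0847 to 0.0777 in all reads and -0.0216 to 0.0293 in T>C reads. Differently numbered libraries gave -0.0844 to 0.0816 in all reads and -0.0364 to 0.0322 in T>C reads. With the replicate block there were 16 calls in T>C reads and 44 in all reads for PladB, and 0 in all reads for WX-02-23.

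Small class differences changed sign. The labelled share of WX-02-43 minus DMSO ranged from -0.112 to 0.964 points without a library, and that of WX-02-23 minus WX-02-43 from -0.367 to 0.709, with -0.176 without the 5 RNAs with most reads. The part of all reads in PladB minus DMSO, -0.0156, became 0.00482 without same-strand overlap, and 0.00021 without RNAs over 50% multimapping; the part in WX-02-23 minus WX-02-43 ranged from -0.00529 to 0.0112 without a library and was -0.00288 without those RNAs. The labelled share relative to coding genes, WX-02-23 minus DMSO, ranged from -0.0513 to 0.113 without a library and was -0.0307 without them. The settings without multimapping RNAs, without CKMT2-AS1, without ANKRD30BL and without RNAs now listed as coding were chosen after seeing the data; 15 and 35 calls stood for PladB in T>C and all reads without multimapping RNAs. Depth limits most of these RNAs: of 1169, 280 had enough T>C reads to be tested.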
